A study of Drosophila melanogaster with 3 samples.

Results

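The genes of the translation initiation factors (eIF) and elongation factors (eEF) of Drosophila melanogaster were examined for binding of the protein CG34224. Every protein-coding gene whose symbol begins with eIF or eEF followed by a digit was taken, which gave 51 of the 13968 protein-coding genes on the main chromosome arms of the annotation. The factor genes comprised 3 of the eIF2 complex, 5 of eIF2B, 16 of eIF3, 13 of eIF4, 5 of eEF1 and 9 factors that work as single proteins or small assemblies. Binding had been measured by chromatin immunoprecipitation and sequencing (ChIP-seq) with an antibody against GFP, in whole embryos 0 to 24 hours old of 1 transgenic strain that carries CG34224 fused to eGFP. All 3 libraries were biological replicates of this single group, so there is no second condition. Each library averages over the tissues and stages of the whole embryo, and it reports the tagged protein.

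Translation of most messenger RNAs starts when eIF2, with GTP and the initiator tRNA, joins the small ribosomal subunit together with eIF1, eIF1A, eIF3 and eIF5, while the eIF4 group binds the cap of the message and unwinds its leader. After start codon recognition eIF5B helps the large subunit to join, and eIF2B recharges eIF2 with GTP. The elongation factors eEF1 and eEF2 then deliver aminoacyl-tRNAs and move the ribosome along. Several of these factors have paralogues in Drosophila, some of which, such as members of the eIF4E family, are known for roles in the male germ line.

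A gene was called bound when the summit of a peak lay within 500 bp of one of its annotated start sites in the authors' conservative list, which draws on the 3 libraries together. For 4 bound genes the upstream strand is shown because they had the highest signals on the arms from which sequence was taken, for eIF3d2 and eIF4E3 because they are unbound paralogues of bound genes, and for eIF4A, added after its values were seen, because its peak occurred in the ranked lists alone. Sequences are from the reference genome of build dm6 (BDGP Release 6), read 5′ to 3′ on the gene's strand and ending at the base before the start site, or beginning after the nearest upstream exon where that lies closer. Capitals mark the DNA replication-related element (DRE, TATCGATA) and its core ATCGAT, which is contained in the DRE and is counted within it too. The stretches are chr3R:4714183-4714382 on the minus strand for eIF3f1, chr3R:15263459-15263551 on the minus strand for eIF2gamma, chr3R:29027175-29027235 on the minus strand for eIF4E6, chr3R:18274465-18274664 on the plus strand for eIF1A, chr3R:12195012-12195211 on the minus strand for eIF3d2, chr3L:8229024-8229223 on the plus strand for eIF4E3 and chr2L:5981564-5981763 on the plus strand for eIF4A.
eIF3f1: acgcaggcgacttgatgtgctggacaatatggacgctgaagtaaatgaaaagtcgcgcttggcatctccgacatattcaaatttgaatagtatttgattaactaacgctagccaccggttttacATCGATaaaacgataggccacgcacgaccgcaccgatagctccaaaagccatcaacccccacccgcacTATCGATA
eIF2gamma: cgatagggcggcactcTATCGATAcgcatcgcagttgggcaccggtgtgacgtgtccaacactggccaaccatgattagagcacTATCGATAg
eIF4E6: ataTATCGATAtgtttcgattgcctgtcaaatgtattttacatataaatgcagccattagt
eIF1A: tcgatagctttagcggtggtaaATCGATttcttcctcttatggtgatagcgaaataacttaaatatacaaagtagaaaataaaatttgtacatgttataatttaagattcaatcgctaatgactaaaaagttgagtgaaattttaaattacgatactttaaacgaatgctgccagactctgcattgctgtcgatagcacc
eIF3d2: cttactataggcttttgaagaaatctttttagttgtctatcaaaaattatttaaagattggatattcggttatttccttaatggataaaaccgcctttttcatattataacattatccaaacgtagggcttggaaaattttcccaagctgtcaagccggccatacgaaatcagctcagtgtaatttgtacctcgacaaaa
eIF4E3: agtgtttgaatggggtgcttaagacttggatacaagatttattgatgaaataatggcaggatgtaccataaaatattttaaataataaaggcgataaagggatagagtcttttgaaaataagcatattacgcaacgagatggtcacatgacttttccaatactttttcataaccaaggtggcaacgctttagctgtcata
eIF4A: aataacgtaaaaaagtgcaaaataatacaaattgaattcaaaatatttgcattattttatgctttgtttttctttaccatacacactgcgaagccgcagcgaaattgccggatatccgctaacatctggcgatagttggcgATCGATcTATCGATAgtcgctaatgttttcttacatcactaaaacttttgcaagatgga

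In eIF3f1 the DRE filled the 8 bases just before the start site, and a further core lay at -76 to -71. The stretch of eIF2gamma held 2 complete DRE, at -77 to -70 and -9 to -2, and a further one straddled its upstream edge. In eIF4E6 the DRE ran from -58 to -51 and its centre lay 0.5 bp from the summit. In eIF1A a core lay at -178 to -173 and a DRE straddled the upstream edge. The stretches of the unbound eIF3d2 and eIF4E3 held none of the marked elements, whereas that of eIF4A held a DRE at -52 to -45 beside a further core at -59 to -54.

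Of the 51 factor genes, 24 (47.1%, 95% Wilson interval 34.1 to 60.5) were bound in the conservative list, against 29.7% of all protein-coding genes. Bound genes included those of the subunits eIF3a, eIF3b and eIF3c, the GTP-binding subunit of eIF2, the translocase eEF2 and the cap-binding eIF4E1, and unbound ones included both genes of the aminoacyl-tRNA carrier eEF1alpha. In the authors' thresholded lists of the single libraries 22 factor genes (43.1%) were bound in replicate 1, while replicate 2 had 19 (37.3%) and replicate 3 had 25 (49.0%). The background over all protein-coding genes was 21.1%, 22.3% and 28.6% in the same lists. The factor genes were above it in 3 of 3 replicates, with a mean of 43.1% ± 5.88 (SD, n = 3) against 24.0% ± 4.07, a ratio of 1.81 ± 0.207. The genes are not independent samples, the intervals cover counting error only, and no test was made of these shares.

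Read counts did not accompany the lists, and depth is unknown. The thresholded lists held 2667, 2844 and 4146 peaks in replicates 1, 2 and 3. The conservative list held 4395 peaks of median width 536 bp. Replicate 3 had the longest list and the most bound factor genes, replicate 1 the shortest list but more bound factor genes than replicate 2.

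**Figure D1:**
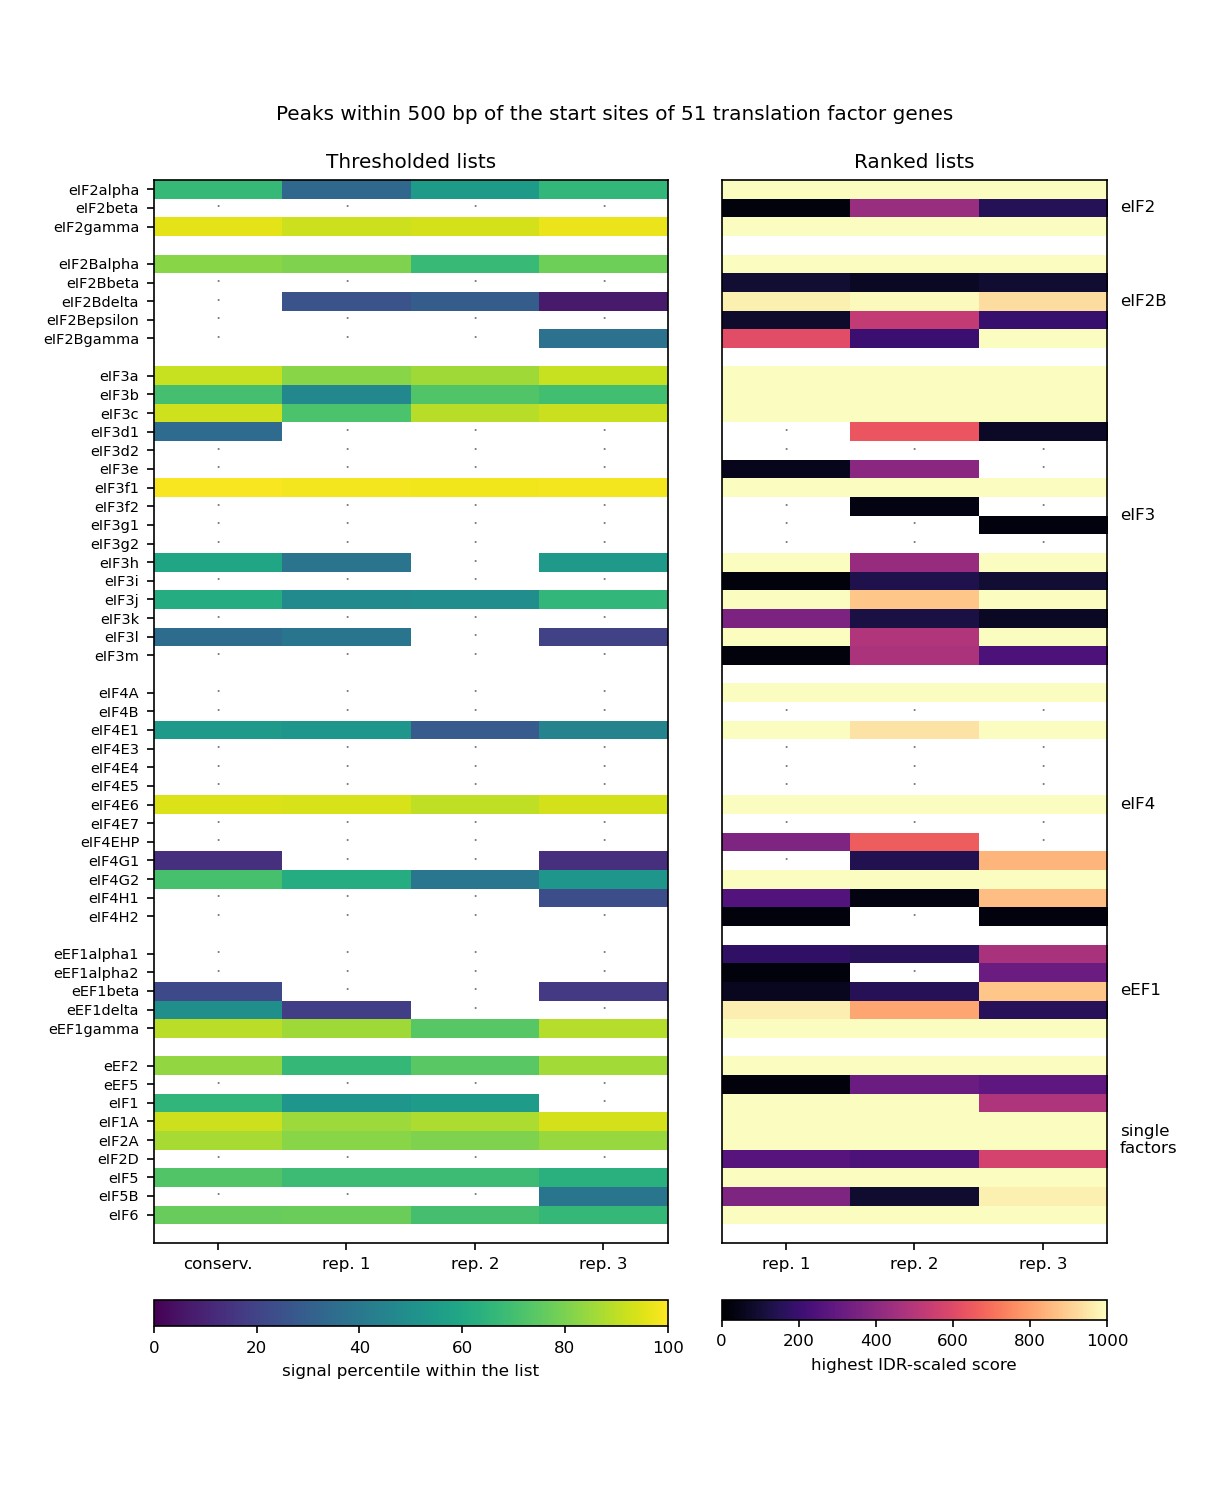
Each row is 1 of the 51 factor genes, grouped by complex. Colour gives the signal percentile of the strongest peak within 500 bp of a start site in the thresholded lists (left, conservative list and 3 replicates) and the highest IDR-scaled score, at most 1000, in the ranked lists (right); dots mark no peak, and eIF4A is blank on the left but at 1000 in all 3 ranked lists.

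Most of the bound factor genes recurred in every library. Of the 24, 17 (70.8%) were bound in all 3 replicates, 3 in 2 of them (eIF3h, eIF3l and eIF1), 3 in 1 (eIF4G1, eEF1beta and eEF1delta) and only eIF3d1 in none. Among all bound genes 2393 of 4153 (57.6%) were bound in all 3. With eIF2Bdelta, which the conservative list lacked, 18 of 51 factor genes (35.3%) were bound in all 3 replicates, against 17.3% of all protein-coding genes. At the other end 22 of 51 factor genes (43.1%) had no promoter peak in any thresholded list of a replicate or of the series. The same share was not computed over all protein-coding genes, so this count has no background to be set against.

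Signals at the bound factor genes spread over most of the range of the list. The signal is the authors' peak value, of unstated scale, and is used here only within a list, as a rank from the strongest or as a percentile with 100 at the strongest. The median percentile in the conservative list was 71.9 (range 13.5 to 98.9), against 64.5 over all bound protein-coding genes. The medians in replicates 1, 2 and 3 were 67.5, 73.0 and 66.2, against 59.8, 60.0 and 63.1. The mean of these medians was 68.9 ± 3.63 (SD, n = 3) for factor genes and 61.0 ± 1.81 for all bound genes, and the factor genes were higher in each of the 3 lists.

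Within eIF2, which brings the initiator tRNA, the genes of the alpha and gamma subunits were bound in the conservative list and in all 3 replicates. The peak of eIF2gamma (FBgn0263740), the GTP-binding subunit, at chr3R:15263287-15263683 had a signal of 777 (rank 181) in the conservative list and 206, 209 and 403 (ranks 204, 182 and 127) in replicates 1, 2 and 3. The start site under this peak also serves Su(var)3-9, the gene of a histone methyltransferase, and the start site of Set lies on the opposite strand, so the peak cannot be assigned to eIF2gamma alone. At eIF2alpha (FBgn0261609), the subunit that stress kinases phosphorylate, the signal was 312 (rank 1458), with 72.9, 92.4 and 155 in the replicates. The gene of eIF2beta, which contacts eIF5 and eIF2B, had no thresholded peak, and its ranked peaks scored 26, 431 and 151. The IDR-scaled score runs up to 1000, and the lowest in any thresholded list was 830.

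Of the genes of eIF2B, the guanine nucleotide exchange factor of eIF2, the conservative list held only eIF2Balpha, a regulatory subunit, with a signal of 466 (rank 781). It had 152, 114 and 201 in the replicates, and the start site of Vps13B lay 58 bp from the summit on the opposite strand. The regulatory subunit gene eIF2Bdelta was absent from the conservative list yet bound in all 3 replicates, with signals of 66.0, 63.0 and 56.5 and summits at -46, -92 and -79 bp. It was the only factor gene with this combination, and its peaks stood at percentiles 25.5, 29.5 and 7.29. The catalytic subunit gene eIF2Bgamma was bound in replicate 3 and no other replicate, with a signal of 101, and in 2 of the other series lists. The genes of eIF2Bbeta and of the catalytic eIF2Bepsilon were in no thresholded list, with highest ranked scores of 95, 68 and 93 and of 84, 535 and 193. Counted by replicate, eIF2B had 2, 2 and 3 of 5 genes bound (46.7% ± 11.5, SD, n = 3), more than the 1 of 5 in the conservative list. All protein-coding genes had 24.0% ± 4.07 over the replicates and 29.7% in the conservative list.

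The genes of eIF3, the largest initiation factor, were divided evenly, with 8 of 16 bound in the conservative list and 7, 5 and 7 in replicates 1, 2 and 3 (39.6% ± 7.22). Beside this stood 29.7% of all protein-coding genes in the conservative list and 24.0% ± 4.07 over the replicates. The strongest peak at any factor gene was that of eIF3f1 (FBgn0037270) at chr3R:4713958-4714428, 43 bp upstream of its start site, with a signal of 1071 (rank 50). In the replicates it had 302, 271 and 455 and ranked 43, 64 and 72. The genes of eIF3a, eIF3b and eIF3c were bound in all 3 replicates. The signal of eIF3c was 673 (rank 318), with 128, 184 and 307, that of eIF3a was 632 (rank 378), with 157, 166 and 301, and that of eIF3b was 340 (rank 1291), with 85.5, 126 and 165. The summit at eIF3b lay 283 bp from its start site but 64 bp from that of Patronin, a microtubule minus-end protein.

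The remaining bound eIF3 genes had lower signals. At eIF3j, a loosely attached subunit, the signal was 280, with 87.3, 84.0 and 155 in the replicates. At eIF3h it was 262, with 77.9 in replicate 1, 123 in replicate 3 and no peak in replicate 2, and at eIF3l it was 182, with 78.2, no peak and 82.1. The gene of eIF3d1, which in human cells has a cap-binding counterpart, was bound in the conservative list (181, 382 bp downstream of the start site) and in no replicate, so no single library carried this call. The ranked peaks of the unbound eIF3e, eIF3i, eIF3k and eIF3m had scores of at most 474, with none at eIF3e in replicate 3, and eIF3g1, an RNA-binding subunit, had 1 with a score of 30 in replicate 3.

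In the eIF4 group 4 of 13 genes were bound in the conservative list, and 3, 3 and 5 in the replicates (28.2% ± 8.88), beside the background shares above. The cap-binding eIF4E1 had a signal of 241 (rank 2033), with 93.5, 62.6 and 110 in the replicates. Its paralogue eIF4E6 had 737 (rank 225), with 219, 189 and 332, but the start site of CG1951 lay 8 bp from that summit and its own 54 bp. The scaffold gene eIF4G2 had 344, with 108, 72.8 and 121, and shares its start site with CG33111. The scaffold gene eIF4G1 on chromosome 4 had 127 and was found, among the replicates, in replicate 3 alone, with 73.7. Among the cofactor genes, eIF4H1 was bound in replicate 3 (86.1), in no other replicate and in the longest of the other series lists, and eIF4H2 and eIF4B were in no thresholded list.

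The gene of the RNA helicase eIF4A (FBgn0001942) was the only unbound one with a score of 1000 in all 3 ranked replicate lists. No thresholded list held a peak at its promoter. Its signals in the ranked lists were 120, 149 and 251, with summits at -103, -109 and -102 bp. In the thresholded lists of the same libraries these signals would take ranks 834, 543 and 580, that is percentiles 68.8, 80.9 and 86.0. The 4 ranked lists of the whole series held the same peak at chr2L:5981482-5981793 with a signal of 443 and a score of 1000. All thresholded peaks of a replicate were in its ranked list, and of the ranked peaks with a score of 830 or more 104 of 2771, 91 of 2932 and 148 of 4293 were missing from the thresholded list. Per the deposited descriptions the thresholded lists draw on 1 further input file, and its part in this was not tested. With the ranked peaks of that score counted, a rule chosen after seeing the data, 23, 20 and 26 factor genes were bound (45.1, 39.2 and 51.0%). The shares of all protein-coding genes under this rule were 21.5, 22.7 and 29.3%. Among the factor genes eIF4A was the one gained in each replicate, while 67, 65 and 86 of all protein-coding genes were gained.

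Among the eEF1 genes, the conservative list held those of the exchange complex and not those of the carrier. The gene of eEF1gamma, a structural subunit, had a signal of 599 (rank 453), with 170, 128 and 273 in the replicates. The genes of the exchange subunits eEF1delta and eEF1beta were bound in the conservative list (226 and 151) and in 1 replicate each, replicate 1 with 60.4 and replicate 3 with 78.2. Both genes of eEF1alpha, which carries aminoacyl-tRNA to the ribosome, were in no thresholded list. Their highest ranked scores were 176, 162 and 472 for eEF1alpha1, and 26, none and 317 for eEF1alpha2. In all, 3 of 5 eEF1 genes were bound in the conservative list and 2, 1 and 2 in the replicates (33.3% ± 11.5). The shares of all protein-coding genes were 29.7% in the conservative list and 24.0% ± 4.07 over the replicates. In replicate 2 eEF1 stood below all genes (20.0 against 22.3%).

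The single factors were bound in 6 of 9 cases in the conservative list and in 6 of 9 in each replicate. Over all protein-coding genes the shares were 29.7% and, over the replicates, 24.0% ± 4.07. The gene of eIF1A, which takes part in scanning, had 665 (rank 330), with 168, 176 and 329, and shares its strongest peak with Vps39, whose start site is nearer (89 against 130 bp), while a further conservative summit lay 46 bp from its other start site. The gene of eIF2A, an alternative initiator tRNA carrier, had 544, with 157, 148 and 243. The gene of the translocase eEF2 had 489, with 116, 130 and 252, and its summit lay 1 bp from the start site. The percentiles of eEF2 in the replicates were 66.5, 74.5 and 86.2, and those of eIF2A were 82.2, 80.7 and 84.7. The gene of eIF6, which keeps ribosomal subunits apart, had 406, with 143, 122 and 156. The gene of eIF5, the GTPase activator of eIF2, had 365, with 120, 116 and 146, but its summit lay 472 bp upstream of its start site and 22 bp from that of the homeobox gene exd. The gene of eIF1, which guards start codon choice, had 303 with 93.2 in replicates 1 and 2 and no thresholded peak in replicate 3.

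The unbound single factors were eIF5B, eIF2D and eEF5. The GTPase gene eIF5B was bound in replicate 3 and no other replicate, with a signal of 102, and in the longest of the other series lists. The gene of eIF2D, which can place tRNA on the ribosome independently of eIF2, had ranked scores of 267, 244 and 578. The gene of eEF5, the factor that eases synthesis of proline-rich stretches, had 26, 320 and 288, and its nearest conservative summit lay 626 bp away, although the 2 longest of the other series lists held a weak promoter peak there. Of the bound factor genes, eIF5, eIF3d1 and eIF3b had the summits farthest from the start site, at 472, 382 and 283 bp. Of the unbound ones, eEF5, eIF2Bbeta and eIF2Bgamma had the nearest conservative summits, at 626, 696 and 1068 bp.

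The Wilson intervals of the complexes all overlapped, from 20.8 to 93.9% for eIF2 and from 3.62 to 62.4% for eIF2B, so these counts do not separate one complex from another. In each replicate 2 of 3 eIF2 genes were bound, beside 21.1, 22.3 and 28.6% of all protein-coding genes in replicates 1, 2 and 3. The groups whose share changed most between lists were eIF2B and eEF1, with 5 genes each.

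**Figure D2:**
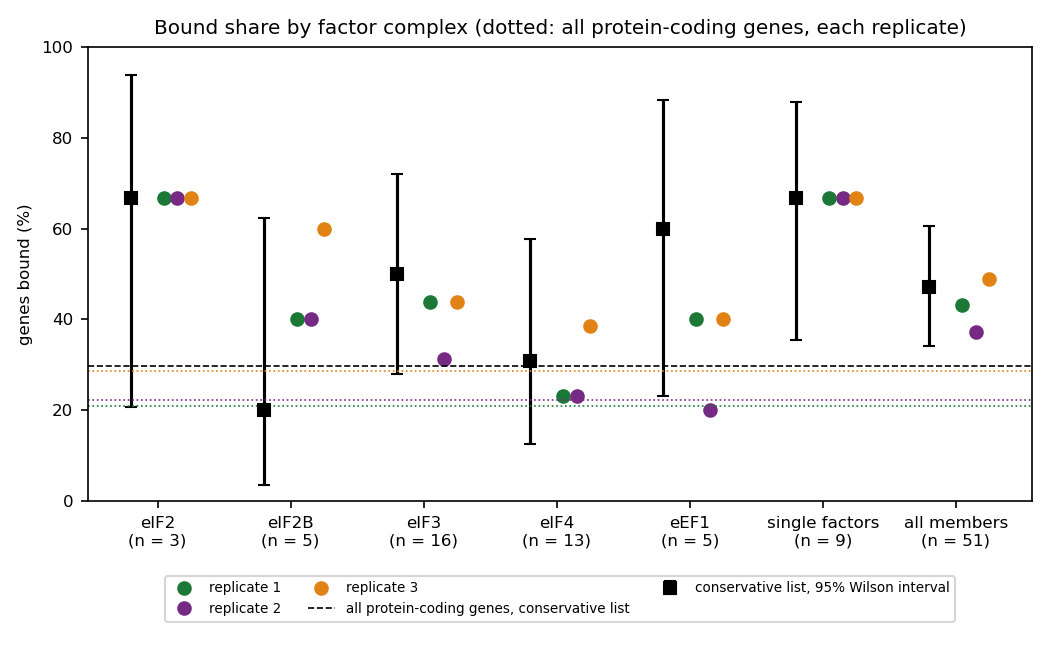
Share of genes bound (%) by complex. Black squares give the conservative list with 95% Wilson intervals (counting error only), coloured points the 3 replicates, and lines the share of all protein-coding genes; eIF2 and the single factors stood at 66.7% in every list and eIF4 at 30.8% in the conservative list.

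Among the paralogue pairs, those of eIF3f and eIF3d had 1 bound and 1 unbound copy in the conservative list. The proteins encoded by eIF3f1 and eIF3f2 share 40.4% of residues over the shorter sequence, and eIF3f1 had the strongest peak while eIF3f2 had none but a ranked peak of score 35 in replicate 2. For eIF3d1 and eIF3d2 (66.8% identity) the first was bound in the conservative list and in no replicate, and the second had no peak in any ranked list. For eIF4G1 and eIF4G2 (26.8%) both were bound, in 1 and 3 replicates. Where both copies were unbound, identity was 71.4% for eIF3g1 and eIF3g2, 45.6% for eIF4H1 and eIF4H2, and 92.2% for eEF1alpha1 and eEF1alpha2.

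In the eIF4E family, bound were eIF4E1 and eIF4E6 (53.2% identity to eIF4E1), each in all 3 replicates. Unbound were eIF4E3, eIF4E4, eIF4E5 and eIF4E7 (46.3, 62.9, 54.7 and 61.8% identity), none of which had a peak within 500 bp in any ranked list, and eIF4EHP, a cap-binding repressor with 24.2% identity, whose ranked scores reached 658. In all, 7 factor genes (13.7%) had no peak in any ranked replicate list, namely these 4 with eIF3d2, eIF3g2 and eIF4B, against 3110 (22.3%) of all protein-coding genes. Of the 7, 6 are paralogues of another factor gene, but so are bound genes such as eIF3f1, eIF4E1 and eIF4E6. The exception among the 7 is eIF4B, whose promoter held a DRE. Its nearest conservative summit lay 3134370 bp away, so the conservative list was empty over a long stretch around it and not at this gene alone.

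The ranked lists hold many weak peaks, and most factor genes had some peak in them: 40, 41 and 41 of 51 genes in replicates 1, 2 and 3 (78.4%, 80.4% and 80.4%), against 61.6%, 59.6% and 69.8% of all protein-coding genes. Among the 27 unbound factor genes 18, 17 and 17 had one, with median highest scores of 136, 244 and 288. Over all 9815 unbound genes the medians were 88, 121 and 127. Scores of 830 or more occurred at 2, 2 and 5 of the 27 (7.41, 7.41 and 18.5%), against 2.38, 2.12 and 5.19% of all unbound genes.

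Summits at bound factor genes lay close to the start site. The median position was -31.5 bp in the conservative list and -50, -46 and -6 bp in replicates 1, 2 and 3 (mean -34 ± 24.3 bp, SD, n = 3), against -58, -60 and -55 bp over all bound genes (mean -57.7 ± 2.52 bp). The median of the factor genes lay less far upstream in 3 of 3 replicates, though in replicates 1 and 2 by only 8 and 14 bp. These 2 differences were less than the spread of that median between replicates. Positions are signed, so the median depends on the share of summits downstream as well as on their distance. In the conservative list 21 of 24 factor genes (87.5%) had the summit within 150 bp, against 74.9% of all bound genes, and the share was higher than that of all genes in each replicate as well. Upstream summits were fewer than at all bound genes in the conservative list (16 of 24, 66.7%, against 78.4%) and in replicate 3 (64.0 against 76.3%), but not in replicates 1 and 2 (86.4 against 81.2% and 84.2 against 82.1%). The peak was shared with a start site of another protein-coding gene in 11 of 24 cases (45.8%), against 53.7% of all bound genes. At eIF3b, eIF4E6, eIF1A and eIF5 the other start site was the nearer. The other shared peaks were those of eIF2gamma, eIF2Balpha, eIF3a (with CG1074), eIF3h (with senju), eIF3l (with Nrx-IV), eIF4G2 and eIF1 (with the ribosomal protein gene RpL28).

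**Figure D3:**
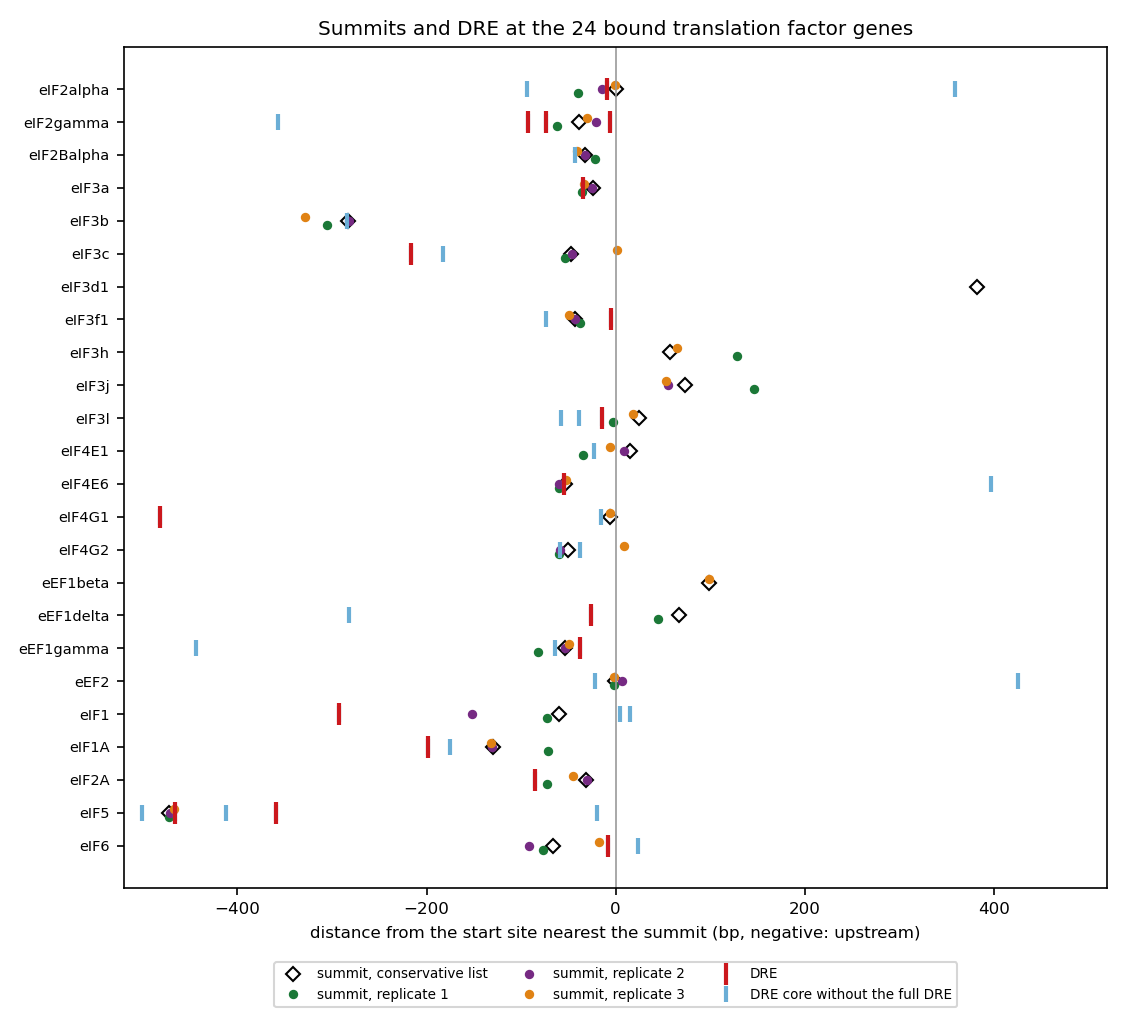
Summits and elements at the 24 bound factor genes, as distance from the start site nearest the conservative summit (bp, negative upstream). Diamonds mark conservative summits, coloured points the 3 replicates, red bars the DRE and blue bars the core alone; summits of eIF3b, eIF5 and eIF3d1 lie more than 250 bp from the start site.

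The promoters were then searched for short elements from 250 bp upstream to 50 bp downstream of 1 start site per gene, independently of the peaks. The DRE, the target of the factor DREF and frequent at housekeeping promoters, occurred at 11 of 24 bound factor genes (45.8%) and 3 of 27 unbound ones (11.1%), the latter being eIF2Bbeta, eIF4A and eIF4B. Over all protein-coding genes it occurred at 24.4% of bound and 2.39% of unbound ones, 8.95% in all. The core ATCGAT occurred at 18 of 24 bound (75.0%) and 6 of 27 unbound factor genes (22.2%), against 48.1% and 12.0%. The Wilson intervals at bound and unbound factor genes were 55.1 to 88.0% and 10.6 to 40.8% for the core. For the DRE they were 27.9 to 64.9% and 3.85 to 28.1%. These intervals cover counting error only, and the genes are not independent samples. All bound and unbound protein-coding genes differed in the same direction. Like the DRE, other elements were searched on both strands. The Ohler E-box (CAGCTG), an element of broad housekeeping promoters, occurred at 4 of 51 factor promoters (7.84%) against 17.9% of all promoters. The E-box with the letters CACGTG occurred at 4 as well (7.84%, all genes 4.28%). The GAGA sequence, searched as GAGAG, occurred at 7 factor promoters (13.7%, all genes 30.2%). The Motif 1 core, with the letters GGTCACACT, occurred at 3 (5.88%, all genes 5.86%). On the sense strand the TATA box, searched as TATAAA, occurred at 17 factor promoters (33.3%, all genes 32.2%). It occurred at 5 of 24 bound and 12 of 27 unbound factor genes (20.8 and 44.4%), against 27.7 and 34.1% of all genes. The Wilson intervals at factor genes were wide, 9.24 to 40.5% and 27.6 to 62.7%. The initiator, searched as TCAGT on the same strand, occurred at 13 (25.5%, all genes 36.6%).

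The TCT initiator, a start site sequence known from genes of the translation machinery, was searched on the sense strand within 10 bp of the start site. The forms accepted were CCTTTC together with CCTTTT among those that begin with a pair of C, and TCTTTC together with TCTTTT among those that begin with T. It occurred at 6 factor genes (11.8%), against 2.04% of all protein-coding genes. They were eIF3f1, eEF1delta and eEF2, which were bound, and eIF3i, eIF4A and eEF5, which were not. Its share was therefore similar at bound and unbound factor genes (12.5% and 11.1%).

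**Figure D4:**
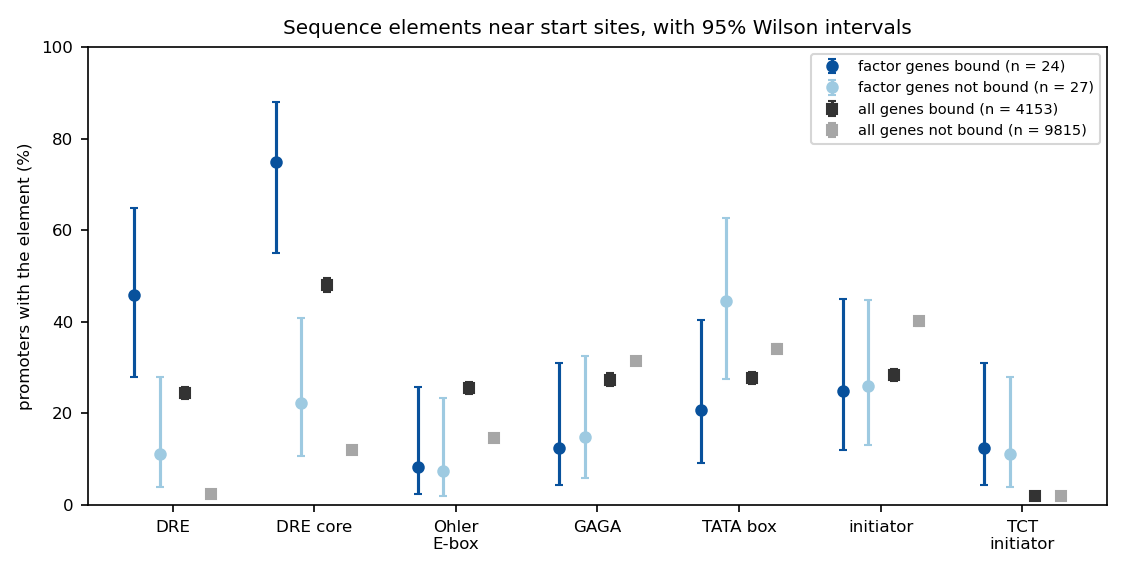
Share of promoters (%) with each element from 250 bp upstream to 50 bp downstream of the start site (TCT initiator: within 10 bp), at bound and unbound factor genes and at all bound and unbound protein-coding genes, with 95% Wilson intervals. The DRE and its core stood at 45.8 and 75.0% of bound factor genes and at 11.1 and 22.2% of unbound ones.

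Peaks at promoters with a DRE had the higher median signal within each list. In the conservative list the median percentile was 91.4 at the 11 bound factor genes with a DRE in the promoter window and 65.6 at the 13 without, against 78.7 and 58.0 over all bound genes. In the replicates it was 82.1, 87.6 and 91.9 with a DRE and 52.7, 61.4 and 52.4 without. The order was the same in 3 of 3 replicates and over all bound genes, where the values were 68.4, 70.1 and 77.2 with a DRE and 54.1, 54.6 and 57.0 without. The ranges over genes overlapped, from 35.3 to 98.9 with and 13.5 to 87.0 without a DRE in the conservative list. The split follows the promoter window and not the peak. Of the 13 without, eIF5, eIF2A, eIF1 and eIF4G1 had a DRE outside that window, 5.5, 54.5, 232.5 and 476.5 bp from the summit. Bound in all 3 replicates were 9 of the 11 and 8 of the 13 factor genes, against 78.1% and 51.0% of all bound genes.

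Around the summits themselves, 15 of 24 bound factor genes had a DRE within 500 bp, 8 of them within 50 bp, at a median distance of 39.5 bp (0.5 to 476.5). It lay 0.5 bp from the summit at eIF4E6, 5.5 bp at eIF5, where exd is nearer, and 10.5 bp at eIF2alpha and eIF3a. A further 5 genes, eIF2Balpha, eIF3b, eIF4E1, eIF4G2 and eEF2, had the core alone. Neither occurred within 500 bp at eIF3d1, eIF3h, eIF3j and eEF1beta, which had summits 58 to 382 bp downstream of the start site and signals of 151 to 280. The shares within 500 bp of a summit were not computed over all bound genes, so these counts have no background to be set against. In windows of 101 bp at the summits, 8 of 24 factor peaks held a DRE (33.3%) and 15 the core (62.5%), against 18.8% and 37.2% of the 3024 peaks that were the strongest at any bound gene.

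Partners and regulators of these factors were listed as well, 26 symbols of which 25 matched the annotation. The list was chosen with earlier results of these data known, so its share is no independent support. Whether these peaks are shared with other genes was not examined. In the conservative list 13 of the 25 (52.0%) were bound, against 29.7% of all protein-coding genes. In the replicates 10, 14 and 15 were bound, beside 21.1%, 22.3% and 28.6% of all genes, and 10 in all 3, beside 17.3%. The highest signals belonged to Paip2, an inhibitor of the poly(A)-binding protein, with 920 (rank 101), NAT1, an eIF4G relative, with 687, and larp, a regulator of messages of the translation machinery, with 595. In the replicates Paip2 had 263, 241 and 390. Next came mxt, an eIF4E-binding protein, with 490, the release factor gene eRF1 with 489, PPP1R15, which recruits the phosphatase of eIF2alpha, with 442, MCTS1, an initiation and recycling factor, with 436, and the recycling factor gene pix with 407. The summits at mxt and MCTS1 lay at -448 and -468 bp, near the limit of 500 bp. The eIF2alpha kinase gene Gcn2 had 361 and was bound in all 3 replicates, whereas that of the kinase PEK was in no replicate's thresholded list. The poly(A)-binding protein gene pAbp had 288, the eIF4E-binding repressor gene Thor 253, crc, the ATF4 homologue, 214, and the release factor gene eRF3 170. The unbound genes were PEK, Lk6, S6k, Pdcd4, DENR, pelo, HBS1, nero, eEFSec, cup, 4E-T and Gyf, of which S6k and eEFSec were bound in replicate 3 and DENR in replicate 2.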

How the data were processed

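The authors deposited, for each of 3 libraries and for the series, ranked and thresholded peak lists made with the irreproducible discovery rate (IDR), on assembly dm6 per the labels; aligner and peak caller were not given in the sources used here. Each score is the deposited IDR-scaled value, and the signal is the deposited peak caller's value, of unstated scale. Sonicated fragments were 200 to 800 bp per the labels. Start sites of all transcripts came from Ensembl BDGP6.54, release 115, and all peak ends lay within the Release 6 chromosome lengths. A gene was represented by its strongest peak whose summit fell at most 500 bp from any of its start sites. Proteins translated from canonical transcripts were aligned globally (BLOSUM62, gap opening 11, extension 1) with Biopython 1.88; tables used Python 3.11.15 and pandas 2.3.3. The peak assignment and the extraction of sequence windows were tested on simulated data. Alternatives changed the distance, the peaks, the start sites, the list and the element window. All members and the bound genes of the partner list were named, and the members and lists were chosen with earlier results of these data known. Depth is unknown, and a control experiment named in the labels was not analysed here. The symbol Tor matched no gene. The labels call the libraries biological replicates and say nothing of separate embryo collections.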

Additional observations from a re-analysis of the deposited data

How the results depend on the processing

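The count of 24 bound factor genes (47.1%) stayed within 1.5 times under every alternative but 1: with the 1000 strongest peaks it was 10 (19.6%, all protein-coding genes 9.97%), where fewer peaks were counted. At 250 bp the count was 21 (41.2%, without eIF3b, eIF3d1 and eIF5), against 26.8% of all protein-coding genes. At 1000 bp it was 26 (51.0%, with eEF5 and eIF2Bbeta), against 32.4%. When a summit counted only for its nearest gene it was 21 (41.2%, without eIF3b, eIF4E6 and eIF5), against 22.9%. In the other series lists it was 27, 23 and 22 (52.9, 45.1 and 43.1%), against 32.4, 28.8 and 26.4%. The median signal percentile of 71.9 became 76.9 at 250 bp, 82.2 with the upper 50% of peaks, 92.0 with the 1000 strongest, 66.8 with the nearest gene only, 67.5 in replicate 1, 66.2 in replicate 3 and 66.6 with the ranked peaks of replicate 3 at the thresholded score, an alternative chosen after seeing the data. The median position of -31.5 bp became -6 bp with the nearest gene only and -6 bp in replicate 3. Except where fewer peaks were counted, the cause was not tested. Leaving out each replicate in turn gave a mean bound share of 40.2 to 46.1%. Shares by complex and element kept within their spread, with 5 exceptions: eEF1 in replicate 2 (20.0%), GAGA in both other windows (5.88 and 35.3%), TATA box in the shorter (19.6%) and initiator in the longer one (45.1%). The eIF2B share was not stable either. It went from 20.0% to 40.0% at 1000 bp and in replicates 1 and 2, and to 60.0% in replicate 3. It counted as kept beside a Wilson interval of 3.62 to 62.4%, for 1 of 5 genes. No paired analysis was possible because there is 1 group. List length bounds what could be called, since the absence of a thresholded peak does not show the absence of binding.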
